A study of Mus musculus with 10 samples.

Results

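This account follows the genes that make, sense and break down prostaglandin D2 (PGD2) in the mouse aorta: the synthases Ptgds and Hpgds, the receptors Ptgdr and Ptgdr2, and the reductases Akr1c18, Cbr1 and Cbr3. Members were all probe sets whose platform gene symbol is one of these names. That gave 8 probe sets of 7 genes, among 34945 probe sets of 18193 genes that carry a single symbol. Ptgds has 2 probe sets and each other gene has 1.

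Total RNA of the aorta was profiled on 1-colour Affymetrix arrays in male C57BL/6 mice, either wild type or Ptgds-/-, the line that lacks lipocalin-type prostaglandin D synthase (L-PGDS). All mice were group-housed on chow, received no treatment that the labels name, and had the aorta removed after euthanasia. The titles call the samples biological replicates. Arrays with values exist for wild type replicates 1, 3, 4 and 5 and for knockout replicates 1 to 5; wild type replicate 2 is labelled as excluded. The knockout is described only as a genotype, so the exons it lacks, the breeding of the controls, the age and the length of aorta taken are not given in the sources used here. Values were read as log2 expression, a scale inferred from their range, so 1 unit stands for a doubling of signal. A probe set entered the test if its value passed a floor of 4 on 4 or more arrays. This floor is a chosen filter value and not a detection call. The aorta is a mixture of cells, and in such bulk RNA fewer cells of a type and less RNA per cell cannot be told apart. All 10 smooth muscle markers, such as Myh11 and Acta2, passed that requirement, and their mean lay between 12.22 and 12.43 on the 9 arrays.

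PGD2 is made from prostaglandin H2, the product of the cyclooxygenases, by either of 2 enzymes that arose independently. L-PGDS is a secreted lipocalin that also carries small lipophilic ligands, and haematopoietic PGD synthase, encoded by Hpgds, is a glutathione-dependent enzyme known from mast cells, macrophages and type 2 lymphocytes. PGD2 acts on the receptor DP1, encoded by Ptgdr, which raises cyclic AMP and relaxes vessels, and on the chemoattractant receptor CRTH2, encoded by Ptgdr2, which draws eosinophils and type 2 lymphocytes. Reductases of the aldo-keto and carbonyl families act on prostaglandins among other carbonyl compounds. The comparison asks whether the other synthase, the receptors or these reductases differ in the aorta when Ptgds is missing.

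The start regions of the 2 synthase genes are shown because these genes are the alternative sources of PGD2 that the comparison sets side by side. The sequences are from RefSeq, assembly GRCm38.p6, and run 5′ to 3′ on the strand of the gene from 250 bases before to 50 bases after its start. The Ptgds window is chr2:25469700-25469999 and the Hpgds window chr6:65144681-65144980, both on the minus strand. Capitals mark matches to the motifs named after the sequences.
Ptgds: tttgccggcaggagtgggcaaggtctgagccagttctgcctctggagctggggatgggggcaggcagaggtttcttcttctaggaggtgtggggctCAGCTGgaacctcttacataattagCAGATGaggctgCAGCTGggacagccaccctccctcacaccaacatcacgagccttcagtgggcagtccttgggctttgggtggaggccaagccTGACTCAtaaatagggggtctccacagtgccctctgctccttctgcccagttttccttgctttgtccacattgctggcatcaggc
Hpgds: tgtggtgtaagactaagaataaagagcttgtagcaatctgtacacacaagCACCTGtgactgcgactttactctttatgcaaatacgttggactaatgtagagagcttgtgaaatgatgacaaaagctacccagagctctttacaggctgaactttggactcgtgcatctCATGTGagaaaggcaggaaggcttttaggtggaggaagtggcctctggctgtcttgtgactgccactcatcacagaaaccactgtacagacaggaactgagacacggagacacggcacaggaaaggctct
5 motifs were searched on both strands: the TATA box TATAAA, the AP-1 element TGACTCA, the GC box GGGCGG, the E-box CANNTG and the GATA element AGATAA. The Ptgds window held an AP-1 match whose first base lies at -35 from the start and E-box matches at -154, -129 and -117. The Hpgds window held E-box matches at -200 and -80. No 2 of these matches overlap. Among 32851 promoter windows of the same length, 5.2% held the AP-1 element, 72.3% an E-box, 13.6% the TATA box, 35.7% the GC box and 11.2% the GATA element. The windows are 57.7% GC for Ptgds and 46.7% for Hpgds, and the median window is 52.7% GC. A match describes letters and not a bound site.

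Ptgds, the targeted gene, was read by both of its probe sets. On probe set 1423859_a_at wild type replicates 1, 3, 4 and 5 stood at 9.11, 10.31, 8.79 and 8.68, and knockout replicates 1 to 5 at 3.86, 3.92, 3.76, 3.67 and 4.40. The groups were far apart, and 4 of the 5 knockout values were under the floor of 4. The wild type values ranked at the 75.2nd to 88.0th percentile of the probe sets of their array, and the knockout values at the 25.0th to 33.7th. The difference in means was -5.30 (log2, SE 0.31, 95% interval -6.01 to -4.60), an adjusted p of 0.0006 in limma (Benjamini-Hochberg over 26504 probe sets). It had the smallest p of all probe sets tested. At that threshold of 0.05, 0.0792% of the probe sets were called in either direction and 0.0264% were called lower in the knockout. Since the knockout mean of 3.92 lies at the floor, the size of the fall is set partly by background.

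The other Ptgds probe set, 1423860_at, moved the same way over a smaller span. Wild type replicates 1, 3, 4 and 5 stood at 5.98, 6.97, 5.92 and 4.87, and knockout replicates 1 to 5 at 3.92, 4.24, 4.13, 4.35 and 4.02. Of these 5 knockout values of the targeted gene, 4 were over the floor. Whether they are background or remaining transcript was not tested. The groups did not overlap, which held toward lower values for 2.62% of all tested probe sets. Its difference was -1.80 (SE 0.34, 95% interval -2.56 to -1.04), and the adjusted p of 0.089 (limma) missed the threshold. It was past the threshold without wild type replicate 1 (adjusted p 0.037) or wild type replicate 5 (adjusted p 0.044). Leaving out any other single array, it missed the threshold (adjusted p 0.094 to 0.223, limma). Without wild type replicate 1, 6.38% of all tested probe sets passed. Each Ptgds probe set had an exact two-sided permutation p of 0.0079, the smallest that 126 splits of 4 against 5 arrays allow. Which exons the probes match was not checked here, so neither probe set is known to lie within the deleted DNA.

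**Figure D1:**
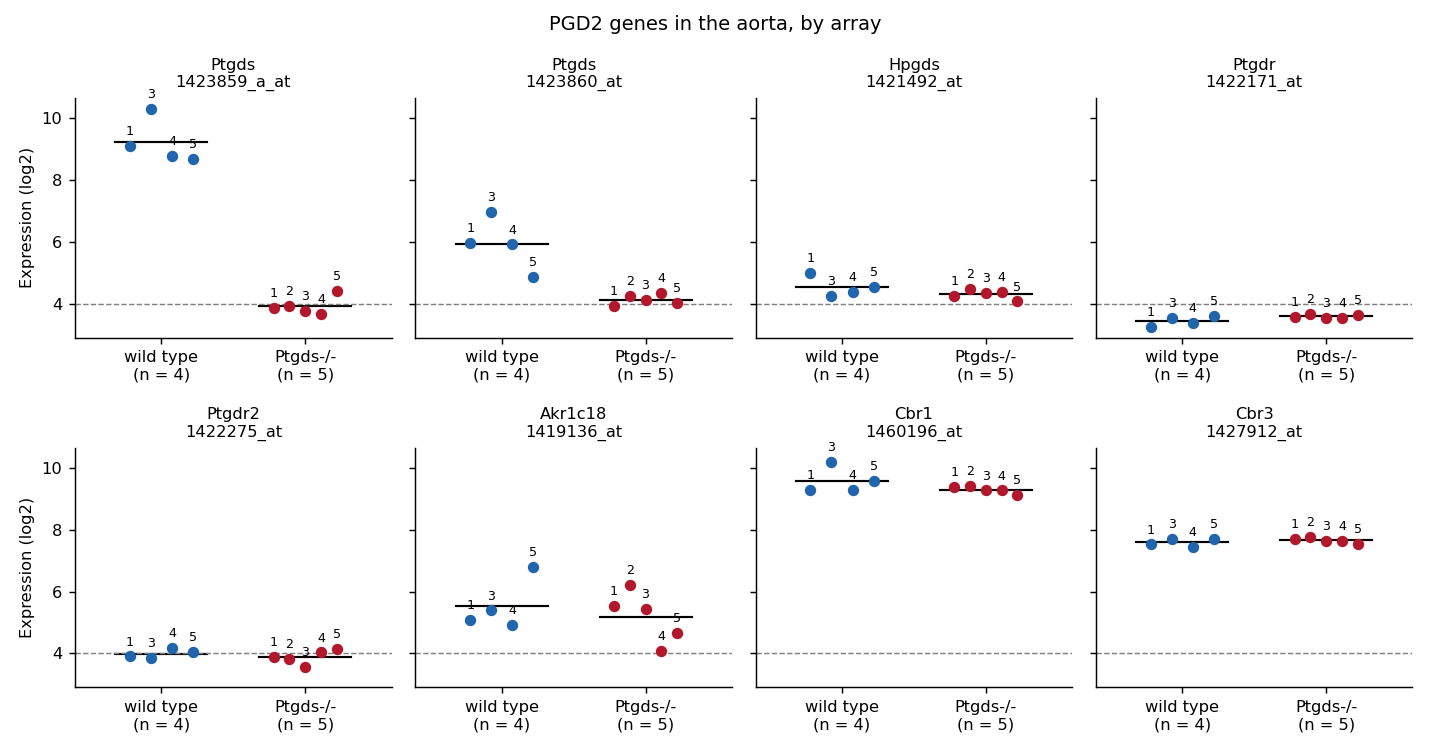
Expression (log2, vertical axis) of the 8 probe sets by genotype; each point is 1 array labelled with its replicate number, the black line is the group mean and the dashed line the floor of 4. The groups separate for both Ptgds probe sets and overlap for the other 6.

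Ptgds varied more among the wild type aortas than most transcripts did. Its SD was 0.75 (n = 4) on 1423859_a_at and 0.86 (n = 4) on 1423860_at, larger than those of 97.6% and 98.1% of tested probe sets, whose median wild type SD was 0.17. Both probe sets ordered the wild type arrays alike, with replicate 3 highest, then replicates 1, 4 and 5. Wild type replicate 3 also stood apart as an array, with a mean correlation of 0.983 with the others against 0.990 to 0.992. It carried the highest sympathetic neuron markers, genes such as Th and Dbh for catecholamine synthesis, of which 9 of 10 are on the array. Their mean was 10.56 on wild type replicate 3 and between 5.10 and 8.75 in the knockout group, and none of the 9 was under the floor on all arrays. On wild type replicates 1, 4 and 5 it was 6.13, 7.61 and 5.20, so replicate 4 came before replicate 1, unlike for Ptgds. The Schwann cell markers, 7 of 10 on the array and none under the floor throughout, stood at 9.40 on wild type replicate 3. They stood at 8.41, 8.34 and 7.87 on wild type replicates 1, 4 and 5, in the order of Ptgds, and between 7.81 and 8.90 in the knockout group. Without wild type replicate 3 the Ptgds difference on 1423859_a_at was -4.94 (SE 0.17, adjusted p 2.8e-05 in limma), with wild type at 8.86 ± 0.23 (SD, n = 3). On 1423860_at it was -1.45 (SE 0.24, adjusted p 0.143 in limma), and wild type stayed widely spread at 5.59 ± 0.62 (SD, n = 3). The part of nerve tissue in the wild type spread of Ptgds was not tested.

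**Figure D2:**
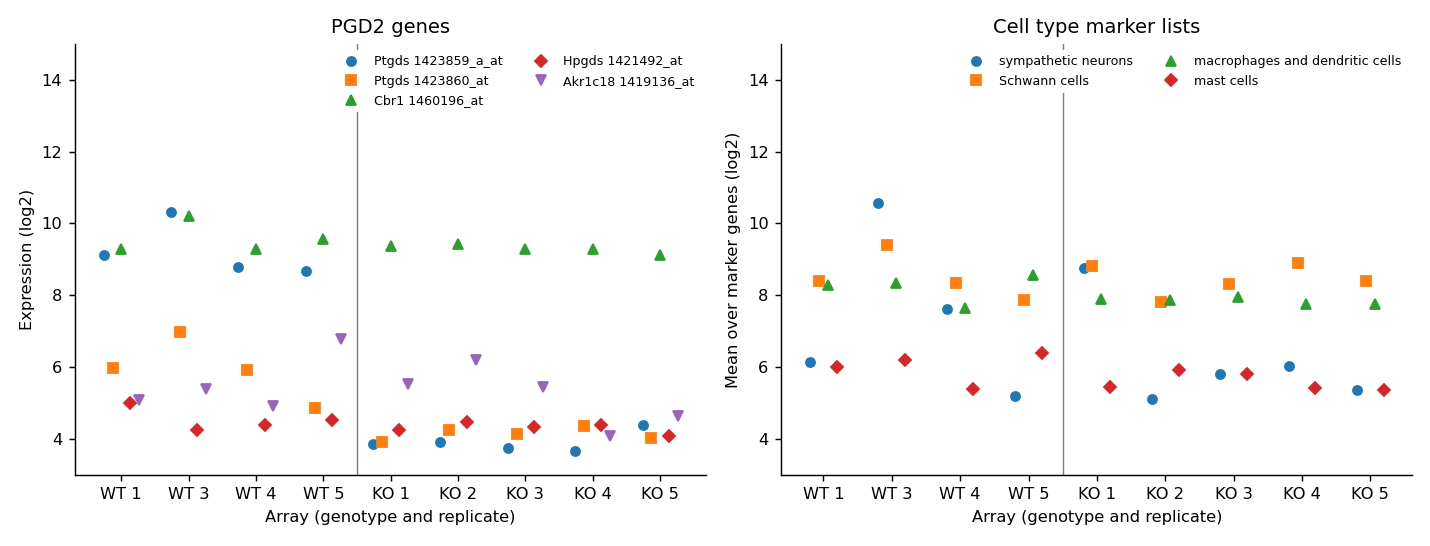
Left, expression (log2) of 5 member probe sets on each array; right, the mean log2 value of 4 cell type marker lists on the same arrays (WT wild type, KO knockout, numbers are replicates; the grey line parts the genotypes). WT 3 holds the highest Ptgds and Cbr1 values and the highest nerve markers, at 10.56 for sympathetic neurons and 9.40 for Schwann cells. Among the other WT arrays, Ptgds and Schwann cell markers are highest on WT 1, sympathetic neuron markers on WT 4 and Cbr1 on WT 5.

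Hpgds, the other PGD2 synthase, gave no higher signal in the knockout aortas. Probe set 1421492_at stood at 4.99, 4.24, 4.38 and 4.53 on wild type replicates 1, 3, 4 and 5, and at 4.24, 4.47, 4.34, 4.38 and 4.07 on knockout replicates 1 to 5. The groups overlapped, and the highest value of all was that of wild type replicate 1. All 9 values were over the floor but near it, at the 29.4th to 40.9th percentile of their arrays. Their range of 4.07 to 4.99 overlapped the 3.92 to 4.35 that Ptgds 1423860_at read in the knockout group. The means were 4.54 ± 0.33 (SD, n = 4) and 4.30 ± 0.15 (SD, n = 5), a difference of -0.24 (SE 0.15) with an adjusted p of 0.412 (limma) and an exact two-sided permutation p of 0.190. The 95% interval of the difference ran from -0.57 to 0.10, so a rise in signal of more than 1.07-fold lay outside it. At this low level a change in transcript can be understated by the background. Without wild type replicate 1 the difference was -0.09.

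Markers of the cells known for Hpgds were read on the same arrays. Of 11 mast cell markers, such as Cpa3 and Cma1, 7 passed the floor on 4 or more arrays, while Tpsab1 and Ms4a2 were under it on all 9. The mean of the 11 ranged from 5.38 to 6.40 in wild type and from 5.36 to 5.92 in knockout, and 0 of the 11 had a higher knockout mean. Of 12 macrophage and dendritic cell markers 11 passed and none was under the floor throughout. Their mean ranged from 7.65 to 8.57 in wild type and from 7.76 to 7.94 in knockout, and again 0 of the 12 had a higher knockout mean. The group means of the lists differed by -0.40 for mast cells and -0.36 for macrophages and dendritic cells. Some lists of other cells had lower knockout means too. These were adipocytes (-0.34, 0 of 8 markers higher), sympathetic neurons (-1.17, 0 of 9), cardiomyocytes (-0.50, 1 of 10) and endothelium (-0.21, 1 of 10). Differences were small for Schwann cells (-0.06, 2 of 7), fibroblasts (-0.03, 3 of 10), smooth muscle (0.06, 8 of 10) and eosinophils, type 2 lymphocytes and T cells (0.02, 6 of 10). Mesothelium (0.31, 7 of 8) and skeletal muscle (0.97, 10 of 10) had higher knockout means. The skeletal muscle mean was 9.77 on knockout replicate 3 and 4.55 to 4.98 on all other arrays. Array by array the order was alike only in part. Wild type replicate 3 had the lowest wild type Hpgds value, 4.24, beside a mast cell mean of 6.20, exceeded only by the 6.40 of wild type replicate 5. In the knockout group, replicate 2 was highest for Hpgds (4.47) and for mast cell markers (5.92). Knockout replicate 5 was lowest for both, at 4.07 and 5.36. Knockout replicate 4 stood at 4.38 for Hpgds but only 5.42 for mast cell markers. The macrophage and dendritic cell mean of the knockout group was highest on replicate 3 (7.94) and lowest on replicate 4 (7.76), unlike Hpgds. The part of these cells in the Hpgds values was not tested.

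Ptgdr, the gene of the vasorelaxant receptor DP1, was under the floor on every array. Probe set 1422171_at stood at 3.25, 3.54, 3.37 and 3.60 on wild type replicates 1, 3, 4 and 5, and at 3.56, 3.67, 3.54, 3.54 and 3.64 on knockout replicates 1 to 5. The groups overlapped and no value passed the 25.2nd percentile of its array. The difference in means of 0.15 was therefore not among those tested, and its exact two-sided permutation p was 0.103. With no filter on low values, its adjusted p was 0.413 (limma) and its interval reached 0.33, or 1.26-fold. A level under the floor does not show that the receptor is absent.

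Ptgdr2, the gene of CRTH2, straddled the floor. Probe set 1422275_at stood at 3.90, 3.86, 4.17 and 4.04 on wild type replicates 1, 3, 4 and 5, and at 3.89, 3.81, 3.56, 4.03 and 4.14 on knockout replicates 1 to 5. It was over the floor on 2 arrays of each genotype, which is the least that the test requires, and the groups overlapped. The difference was -0.10 (SE 0.12, 95% interval -0.37 to 0.17), with an adjusted p of 0.675 (limma) and an exact two-sided permutation p of 0.460. Of 10 markers on the array for eosinophils, type 2 lymphocytes and T cells, 4 passed the floor on 4 or more arrays. The eosinophil genes Siglecf, Ccr3, Prg2, Epx and Il5ra were under the floor on all 9 arrays. The mean of the 10 ranged from 3.63 to 4.42 in wild type and from 3.91 to 4.41 in knockout.

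**Figure D3:**
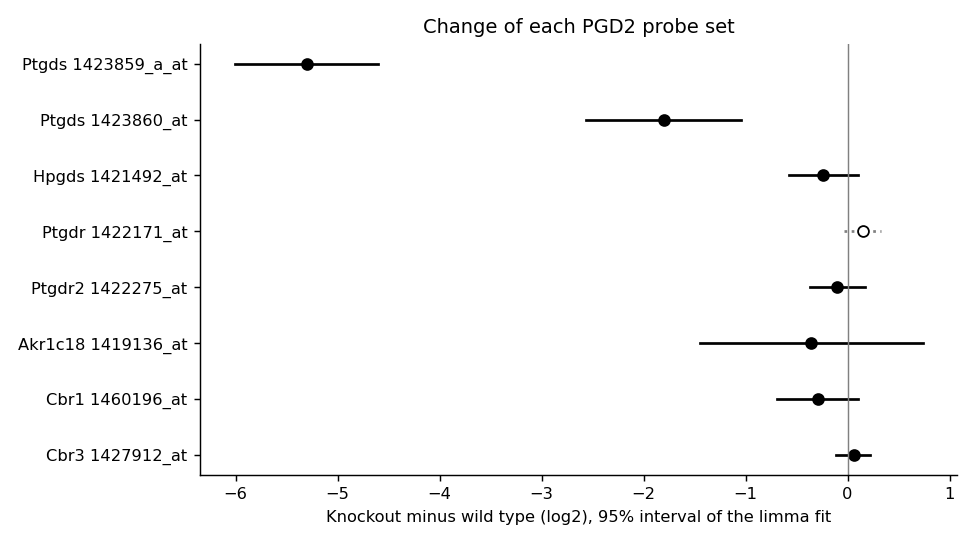
Knockout minus wild type (log2, horizontal axis) for each probe set, with the 95% interval of the limma fit; the open point with a dotted line is Ptgdr, which was under the floor and whose interval comes from the fit with no filter. The intervals of both Ptgds probe sets lie below 0 and the others include 0.

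The reductases were measured at levels from low to high. Cbr1, a carbonyl reductase that acts on quinones and on prostaglandins, stood at 9.30, 10.20, 9.30 and 9.58 on wild type replicates 1, 3, 4 and 5. Knockout replicates 1 to 5 stood at 9.38, 9.43, 9.28, 9.28 and 9.13 on the same probe set, 1460196_at. The groups overlapped, and wild type replicate 3, with the highest nerve markers, was also highest for Cbr1. The other arrays did not keep that order. Wild type replicate 5 had Cbr1 at 9.58 with a sympathetic neuron mean of 5.20, and wild type replicate 4 had 9.30 with 7.61. In the knockout group the neuron mean was highest on replicate 1 (8.75) and Cbr1 on replicate 2 (9.43). The part of nerve tissue in the Cbr1 values was not tested. The difference was -0.29 (SE 0.18, 95% interval -0.69 to 0.10), with an adjusted p of 0.397 (limma) and an exact two-sided permutation p of 0.111. Without wild type replicate 3 it was -0.09 (SE 0.10, 95% interval -0.31 to 0.13), so most of the difference came from this array.

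Cbr3, a close relative that lies next to Cbr1 in the gene order of GRCm38.p6, had the narrowest spread of the members tested in both genotypes. Probe set 1427912_at stood at 7.53, 7.70, 7.46 and 7.71 on wild type replicates 1, 3, 4 and 5, and at 7.70, 7.76, 7.64, 7.63 and 7.55 on knockout replicates 1 to 5. The groups overlapped almost fully. The difference of 0.06 (SE 0.08) had a 95% interval of -0.11 to 0.22, an adjusted p of 0.716 (limma) and an exact two-sided permutation p of 0.389. Changes beyond 1.17-fold upward thus lay outside the interval. Unlike Cbr1, it was not raised on wild type replicate 3 above the other arrays. Probe sequences were not used here, so signal shared between these relatives could not be checked.

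Akr1c18, an aldo-keto reductase best known for inactivating progesterone, was the most variable member within the knockout group. Probe set 1419136_at stood at 5.07, 5.39, 4.93 and 6.79 on wild type replicates 1, 3, 4 and 5, and at 5.54, 6.21, 5.45, 4.09 and 4.65 on knockout replicates 1 to 5. The SD was 0.85 (n = 4) in wild type and 0.83 (n = 5) in knockout, larger than those of 98.1% and 98.9% of tested probe sets. The highest array was wild type replicate 5 and the lowest knockout replicate 4. The difference of -0.36 (SE 0.49) had an interval of -1.45 to 0.74, an adjusted p of 0.724 (limma) and an exact two-sided permutation p of 0.540. It was 0.06 without wild type replicate 5, so it has no stable direction, and the spread between mice leaves room for a rise of up to 1.67-fold.

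Beside Ptgds, 0 of the 5 other tested members passed the threshold in limma, and 0 had an unadjusted p under 0.05, against 18.9% of all tested probe sets. The groups overlapped for each of the 6 other probe sets, Ptgdr included; 6.42% of tested probe sets had groups that did not overlap in either direction. Of the receptors, Ptgdr was under the floor on every array and not among those tested, and Ptgdr2 straddled the floor. The test found no higher level of the other synthase, of Ptgdr2 or of a reductase, within the intervals given above. Those intervals bound the signal, and allow rises whose upper bound runs from 1.07-fold for Hpgds and Cbr1 to 1.67-fold for Akr1c18. For Hpgds and Ptgdr2, whose values lay near the floor, background can understate a change in transcript. Their bounds are therefore not limits on a rise in transcript. Transcript levels do not measure enzyme activity or PGD2 itself.

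**Figure D4:**
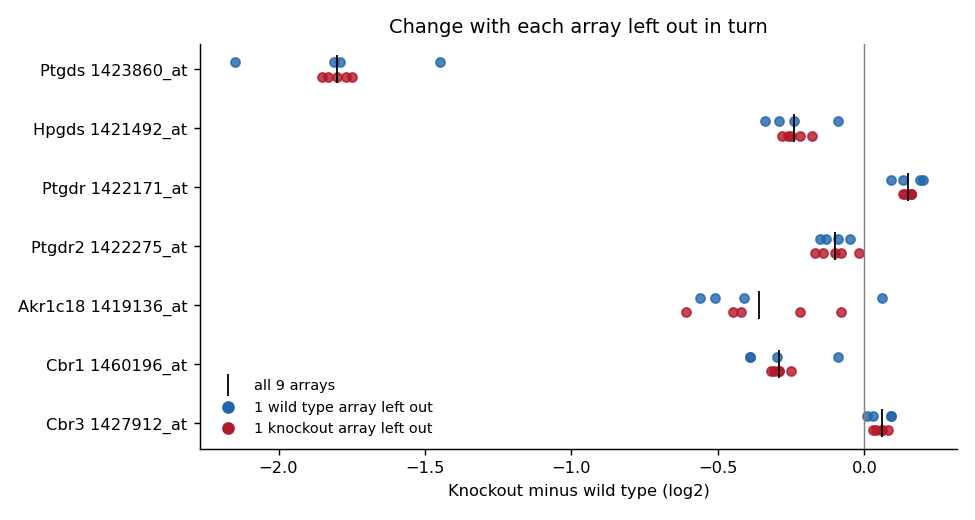
Knockout minus wild type (log2, horizontal axis) for 7 of the 8 probe sets when 1 array at a time was left out (blue, a wild type array; red, a knockout array) and with all 9 arrays (black bar); Ptgds 1423859_a_at, at -5.48 to -4.94, is off this scale. Akr1c18 crosses 0 without wild type replicate 5, and Cbr1 comes to -0.09 without wild type replicate 3.

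Likeness of pattern was described for each tested member by its brightest tested probe set, as the correlation over the 9 arrays with each of 14320 other genes after the group means were subtracted. With so many genes and 9 arrays, high values arise in number, and no p is given. For Ptgds the closest were Prmt2, an arginine methyltransferase (Pearson r 0.97, Spearman rho 0.78), Atp6v1g2, a neuronal subunit of the vacuolar proton pump (0.97 and 0.83), and Nol4l (0.96 and 0.77). All 3 lay farthest above their group mean on wild type replicate 3. For Cbr1 they were Epb41l3, a membrane skeleton protein (0.97 and 0.93), Tmsb10, an actin-binding thymosin (0.96 and 0.87), and the glutamate receptor gene Gria1 (0.96 and 0.87), which peaked on that array too.

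For Hpgds the closest were Mtif3, a mitochondrial translation factor (0.97 and 0.97), Tm9sf1 (0.97 and 0.93) and Lsm3, an RNA-binding splicing protein (0.97 and 0.90), all highest against their group mean on wild type replicate 1. Ptgdr2 was nearest to Cfap20dc (0.98 and 0.93), the syntaxin gene Stx17 (0.97 and 1.00) and Rpgr (0.96 and 0.93), which peaked on knockout replicate 5. Akr1c18 was nearest to 4930579G24Rik (0.95 and 0.97), the transcription factor gene Tfcp2l1 (0.95 and 0.90) and Tbrg3 (0.95 and 0.88). Cbr3 was nearest to Opcml, a cell adhesion protein of neurons (0.97 and 0.98), the sphingomyelinase gene Smpd3 (0.95 and 0.98) and the laminin chain gene Lamb1 (0.93 and 0.92).

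The wider route of prostanoids was read from a list of 30 genes, of which 26 are on the array under a single symbol and 25 were tested. By their brightest probe sets the knockout mean was above that of wild type for 12 and below it for 13. The median of the 25 was -0.011 (log2), against 0.027 over all 14321 tested genes. 0 of the 25 passed the threshold in limma, where 0.0628% of all tested genes did. An unadjusted p under 0.05 was found for 7 of the 25, or 28%, against 19.1% of all tested genes. The groups did not overlap for 1 of the 25, Cbr2, or 4%, against 6.76% of all tested genes.

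Among 4 tested genes that supply arachidonate and prostaglandin H2, 1 was higher and 3 lower, with a median of -0.30. The inducible cyclooxygenase gene Ptgs2 stood at -0.58 (SE 0.30, adjusted p 0.323), the cytosolic phospholipase gene Pla2g4a at -0.30 (SE 0.15, adjusted p 0.296) and the secreted phospholipase gene Pla2g5 at -0.29 (SE 0.24, adjusted p 0.535), all in limma. Of 5 other synthases that draw on prostaglandin H2, 2 were higher and 3 lower, with a median of -0.016. The prostacyclin synthase gene Ptgis differed by 0.07 (SE 0.06), the prostaglandin E synthase gene Ptges2 by -0.19 (SE 0.10) and the thromboxane synthase gene Tbxas1 by -0.19 (SE 0.13), with adjusted p-values of 0.557, 0.329 and 0.451 (limma). Ptges3, Akr1b3 and Akr1b7, listed with these synthases, were not tested.

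Transport and breakdown genes held the smallest p-values of the list. Of 8 tested, 4 were higher and 4 lower. Cbr2, a carbonyl reductase related to the members Cbr1 and Cbr3, ranged from 11.87 to 12.25 in wild type and from 12.27 to 12.38 in knockout, a difference of 0.27 (SE 0.08, adjusted p 0.148 in limma). Ptgr1, which acts on oxidised prostaglandins and on leukotriene B4, stood at 6.36 ± 0.30 (SD, n = 4) and 6.86 ± 0.09 (SD, n = 5), a difference of 0.51 (SE 0.13, adjusted p 0.133 in limma). Cbr4, a mitochondrial carbonyl reductase, differed by -0.30 (SE 0.12, adjusted p 0.220 in limma). The values of the carbonyl reductases Cbr1, Cbr2, Cbr3 and Cbr4 thus lay on both sides of 0.

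Of 8 other receptors, 5 were higher and 3 lower, with a median of 0.095. The 3 with the smallest p were the thromboxane receptor gene Tbxa2r, the prostaglandin E2 receptor gene Ptger2 and Pparg, a nuclear receptor studied as a target of PGD2 breakdown products. They differed by 0.33 (SE 0.11), -0.52 (SE 0.19) and -0.38 (SE 0.14), with adjusted p-values of 0.180, 0.194 and 0.200 (limma). Without wild type replicate 1, 4 genes of the list passed: Ptgr1 (0.65), Cbr2 (0.33), Ptgs2 (-0.90) and Pparg (-0.49). In that fit 1687 probe sets passed, or 6.38% of those tested, against 21 with all arrays.

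**Figure D5:**
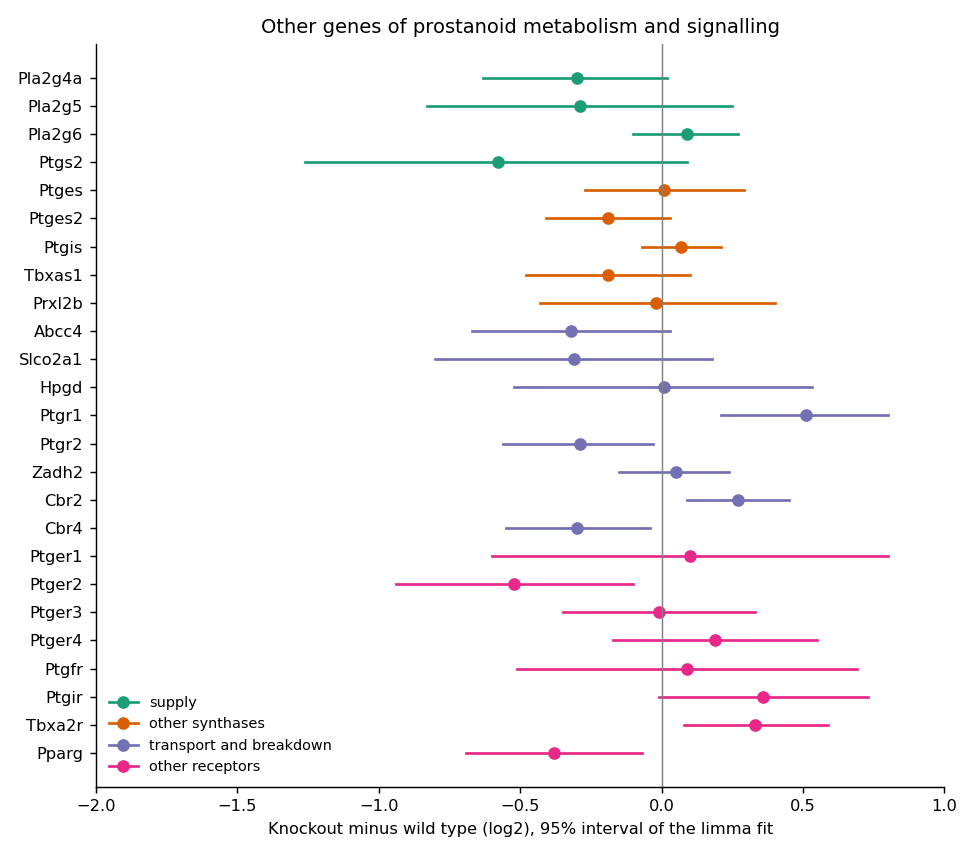
Knockout minus wild type (log2, horizontal axis) with the 95% interval of the limma fit for the 25 tested genes of the prostanoid list, coloured by role. Changes lie on both sides of 0, from Ptgs2 at -0.58 to Ptgr1 at 0.51.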

How the data were processed

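Per the submitters' processing notes the authors used GCRMA, which corrects background, normalizes arrays together and yields 1 value per probe set; no version is given. The deposited numbers were taken to be log2 from their range, since no scale is named, and were used as they are. Of 45101 probe sets, 34945 carry a single symbol in the platform annotation, and 26504 of these, of 14321 genes, had a log2 value over 4 on at least 4 arrays. All of these were fitted with limma 3.58.1 in R 4.3.3 (lmFit, eBayes, default prior, 2 groups, no covariate), with Benjamini-Hochberg adjustment and a threshold of 0.05. Means carry the standard deviation (SD), and changes the standard error (SE) of the fit. Single probe sets were also compared by exact two-sided permutation. The fit was tested on simulated data.

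All members' probe sets are described. The pattern-like genes are the 3 with the highest correlation per member, and the list genes the 3 with the smallest p per role. Zadh2 stands for Ptgr3 in the list; Ptges3 shares its probe sets with another symbol, and Ptgs1, Akr1b3 and Akr1b7 were not analysed here. Members, lists and rules were chosen with earlier results of these data known. Between 70.1% and 71.4% of probe sets were over 4 on each array, and medians lay between 5.88 and 5.97. The number of arrays limits the precision. Alternatives changed the filter, scaling, prior, array weights, threshold, block, the probe set per gene and the arrays used.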

Additional observations from a re-analysis of the deposited data

How the results depend on the processing

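The count of called probe sets, 21, depended on single arrays and on the fit. It was 66 with the trend and robust options, 367 with array weights, 8 with 1 probe set per gene, 244 at an adjusted p threshold of 0.10, and 6 to 1687 without any 1 array, the highest without wild type replicate 1; the cause was not tested. Leaving out knockout replicate 1, 2, 3 or 5, or else wild type replicate 4 or 5, gave 6 or 7. With all arrays only Ptgds 1423859_a_at was past the threshold among the members, at -5.48 to -4.94 without any 1 array (adjusted p 2.8e-05 to 0.0048, limma). Ptgds 1423860_at ran from -2.15 to -1.45 without any 1 array, and of these fits passed only without wild type replicate 1 or 5. It also passed with array weights (-1.54) and at the threshold of 0.10 (-1.80). In the other settings that tested it, it missed, with an adjusted p of 0.326 (limma) for the replicate block. Hpgds ran from -0.34 to -0.09 without any 1 array, with adjusted p-values of 0.330 to 0.661 over its alternatives. Akr1c18 ran from -0.61 to 0.06. The pathway list had 1 called gene with array weights, Ptgr1, and 0 to 4 without any 1 array. Quantile normalization or centring again kept the sign of every tested member. At a floor of 6, Hpgds, Ptgdr, Ptgdr2, Akr1c18 and Ptgds 1423860_at were left untested.

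The replicate numbers in the titles do not show pairing: same-numbered arrays correlated at -0.269, -0.115, 0.0709 and 0.145 for replicates 1, 3, 4 and 5 after group means were subtracted, and 1 of 8 arrays correlated best with its own number. With the replicate block 1 probe set was called, of Pisd-ps3, a name given after its value was seen, and Ptgds 1423859_a_at, still at -5.30, had an adjusted p of 0.091 (limma). Knockout replicate 2 has no partner and drops out of that fit.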
